A study of Mus musculus with 6 samples.

Results

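Transcripts of the eukaryotic translation initiation factors (eIF1 to eIF6) and elongation factors (eEF1 and eEF2) were compared between lavage cells of mice given vehicle and of mice given sulfatide. The members were all genes of the expression table whose symbols begin with Eif and a digit from 1 to 6, or with Eef and 1 or 2. The 4 kinases of the eIF2 alpha subunit, which carry similar symbols, were left out. The rule gave 68 genes of the 22800 in the table and used no measured value. By name the set takes in inhibitors, kinases and methyltransferases of these factors and 1 pseudogene as well as the factors themselves.

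RNA came from the cells of bronchoalveolar lavage fluid, the saline wash of airways and alveoli, in 6 mouse libraries. Vehicle was given in 3 libraries (replicates 2, 3 and 4 of the labels), and 20 µg of sulfatide into the peritoneal cavity in 3 (replicates 1, 2 and 3). Sulfatide is a sulfated glycolipid that activates type II natural killer T cells, and the series title names lung ischemia-reperfusion injury. The labels give no strain, age, time point or genotype, and do not say whether either group had undergone ischemia and reperfusion. Nor do they say that each library is a different animal. The p-values therefore reflect the spread among these 6 libraries, which may be technical.

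Translation begins when eIF2 brings the initiator tRNA to the small ribosomal subunit, which eIF3, eIF1 and eIF1A prepare for scanning. The cap-binding protein eIF4E, the scaffold eIF4G and the helicase eIF4A recruit that complex to the messenger RNA, and 4E-binding proteins, under control of the kinase mTORC1, block this step. eEF1A then delivers aminoacyl-tRNAs and eEF2 moves the ribosome along. In macrophages these steps are known points of control of cytokine output after stimulation, mostly through phosphorylation of the proteins, which transcript levels do not record.

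Most macrophage marker transcripts were abundant in every library. Adgre1 stood at 532 ± 39.3 FPKM with vehicle and 433 ± 61.8 with sulfatide (mean ± SD, n = 3 each), and Cd68 at 628 ± 27.7 and 658 ± 46.3. Of the 8 macrophage genes 1 was called, Cd14, which fell from 3657 ± 69.6 to 2360 ± 167 FPKM (log2 fold change −0.63, adjusted p = 0.00112). Fcgr1 had 509 ± 182 and 316 ± 65.4 FPKM (adjusted p = 0.129), and Mertk, the lowest of the 8, had 3.18 ± 0.999 and 3.73 ± 0.766. At an unadjusted p below 0.05 (limma) 3 of the 8 genes were lower and 0 higher, and on TPM, a rescaling given below, 2 were called lower. Of all 10405 tested genes, 1641 were lower and 1876 higher at that unadjusted p, and 14.7% were called lower on TPM. Summed FPKM of the 8 genes, most of it Lyz2 (28929 ± 2332 and 30691 ± 5433), overlapped between the groups. The part of Cd14 in the values of the members was not tested. FPKM is the number of sequenced fragments relative to the length of the transcript and the size of the library. Of the 10 markers of resident alveolar macrophages, Fabp1 and Krt79 were at 0 in every library and Siglecf did not exceed 0.900 FPKM, whereas Marco (93.1 ± 11.5 and 103 ± 68.7 FPKM) and Chil3 (25.1 ± 5.57 and 31.2 ± 12.6) were present. Itgax, also of this list, was lower with sulfatide (4.49 ± 1.15 and 2.30 ± 0.217 FPKM, adjusted p = 0.0159). The sums over that list were 109.9 to 145 FPKM with vehicle and 88.5 to 236 with sulfatide. Summed FPKM of the 10 neutrophil genes were 117 to 155 with vehicle and 376 to 514 with sulfatide. That rise was in S100a8 (105 ± 11.7 to 419 ± 55.3 FPKM), whereas Ly6g, a defining marker, did not exceed 0.180 FPKM. S100a9 had 21.9 ± 7.61 and 21.2 ± 12.6 FPKM, Ngp 2.41 ± 1.18 and 1.89 ± 1.00, and Camp 5.12 ± 0.826 and 3.46 ± 0.387. Of the 4 neutrophil genes tested, 1 had a positive log2 fold change and was called. The other 3 had negative ones, and on the TPM scale 1 was called lower. Of the 10 T, NKT and NK cell genes 5 were at 0 throughout (summed FPKM 0.640 to 1.01 and 0.490 to 0.900), as were 4 of 8 epithelial genes (0.10 to 0.15 and 0.27 to 0.45). The 7 fibroblast and endothelial genes summed to 33.4 to 48.1 FPKM with vehicle and 32.1 to 42.5 with sulfatide. Most of this was Col1a1 (19.7 ± 4.10 and 14.8 ± 2.43 FPKM) and Col1a2 (18.2 ± 3.32 and 16.7 ± 2.84). Pecam1, Cdh5 and Vwf did not exceed 0.740 FPKM. Summed FPKM over all genes was 1126780 to 1168470 with vehicle and 1217970 to 1249690 with sulfatide. Saa3, an acute-phase protein gene, accounted for 2.40% to 2.58% of that sum with vehicle and 6.52% to 6.93% with sulfatide. Rescaling each library to an equal sum, which turns FPKM into TPM, moved the median log2 fold change of all tested genes from 0.04 to −0.06. For the members and the lists beside them, numbers of calls are given on both scales where they differ.

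Most translation factor transcripts differed little between vehicle and sulfatide. Of the 68 members, 62 reached 1 FPKM in at least 3 libraries and were tested by limma on log2(FPKM + 1). At an adjusted p below 0.05, 1 member was higher with sulfatide (Eif3k, a subunit of eIF3). The test called 2 lower, Eif4e3, a divergent relative of the cap-binding protein, and Eif6, which holds the large ribosomal subunit apart from the small one. These 3 were 4.84% of the tested members, whereas 18.7% of all 10405 tested genes were called, 8.31% higher and 10.4% lower. On the TPM scale the test called 0 members higher and 3 lower (Eif4e3, Eif6 and Eef1e1), against 19.2% of all genes, 4.49% higher and 14.7% lower. At an unadjusted p below 0.05 there were 10 members higher and 4 lower of 62, and 1876 genes higher and 1641 lower of all 10405 tested. The share called among the members was thus below that of all genes on both scales, and this is a count, not a test of the list. In runs that left out 1 library, the share of all genes called was lowest without vehicle replicate 2 (8.41%, with 1 member called) and highest without vehicle replicate 3 (24.2%, with 5 members called).

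The direction of the set as a whole depended on the scaling. On FPKM the median log2 fold change of the members was 0.09 (all tested genes, 0.04), with 40 members above 0 and 22 below. On TPM it was −0.02 (all tested genes, −0.06), with 29 above and 33 below. The members together made up 1.87% to 2.00% of summed FPKM in the vehicle libraries and 1.89% to 1.93% in the sulfatide libraries, and these ranges overlapped. In bulk RNA, fewer cells of a type and less RNA per cell cannot be told apart. FPKM did not overlap between the groups for 20 members (32.3%), of which 15 were higher and 5 lower with sulfatide. Among all tested genes 37% did not overlap, 18.6% higher and 18.3% lower.

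The tests also bounded the difference between these 6 libraries, 1 gene at a time and on log2(FPKM + 1). For 54 of the 62 members (87.1%) the 95% confidence interval of the fold change lay within 1.5-fold in both directions, as it did for 66.6% of all tested genes. The 8 members whose interval reached further were Eif4e3, Eef1e1, Eif1b, Eif3j2, Eef1aknmt, Eef2k, Eif5a2 and Eif4ebp3. The plot of fold changes shows both scales beside each other.

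**Figure D1:**
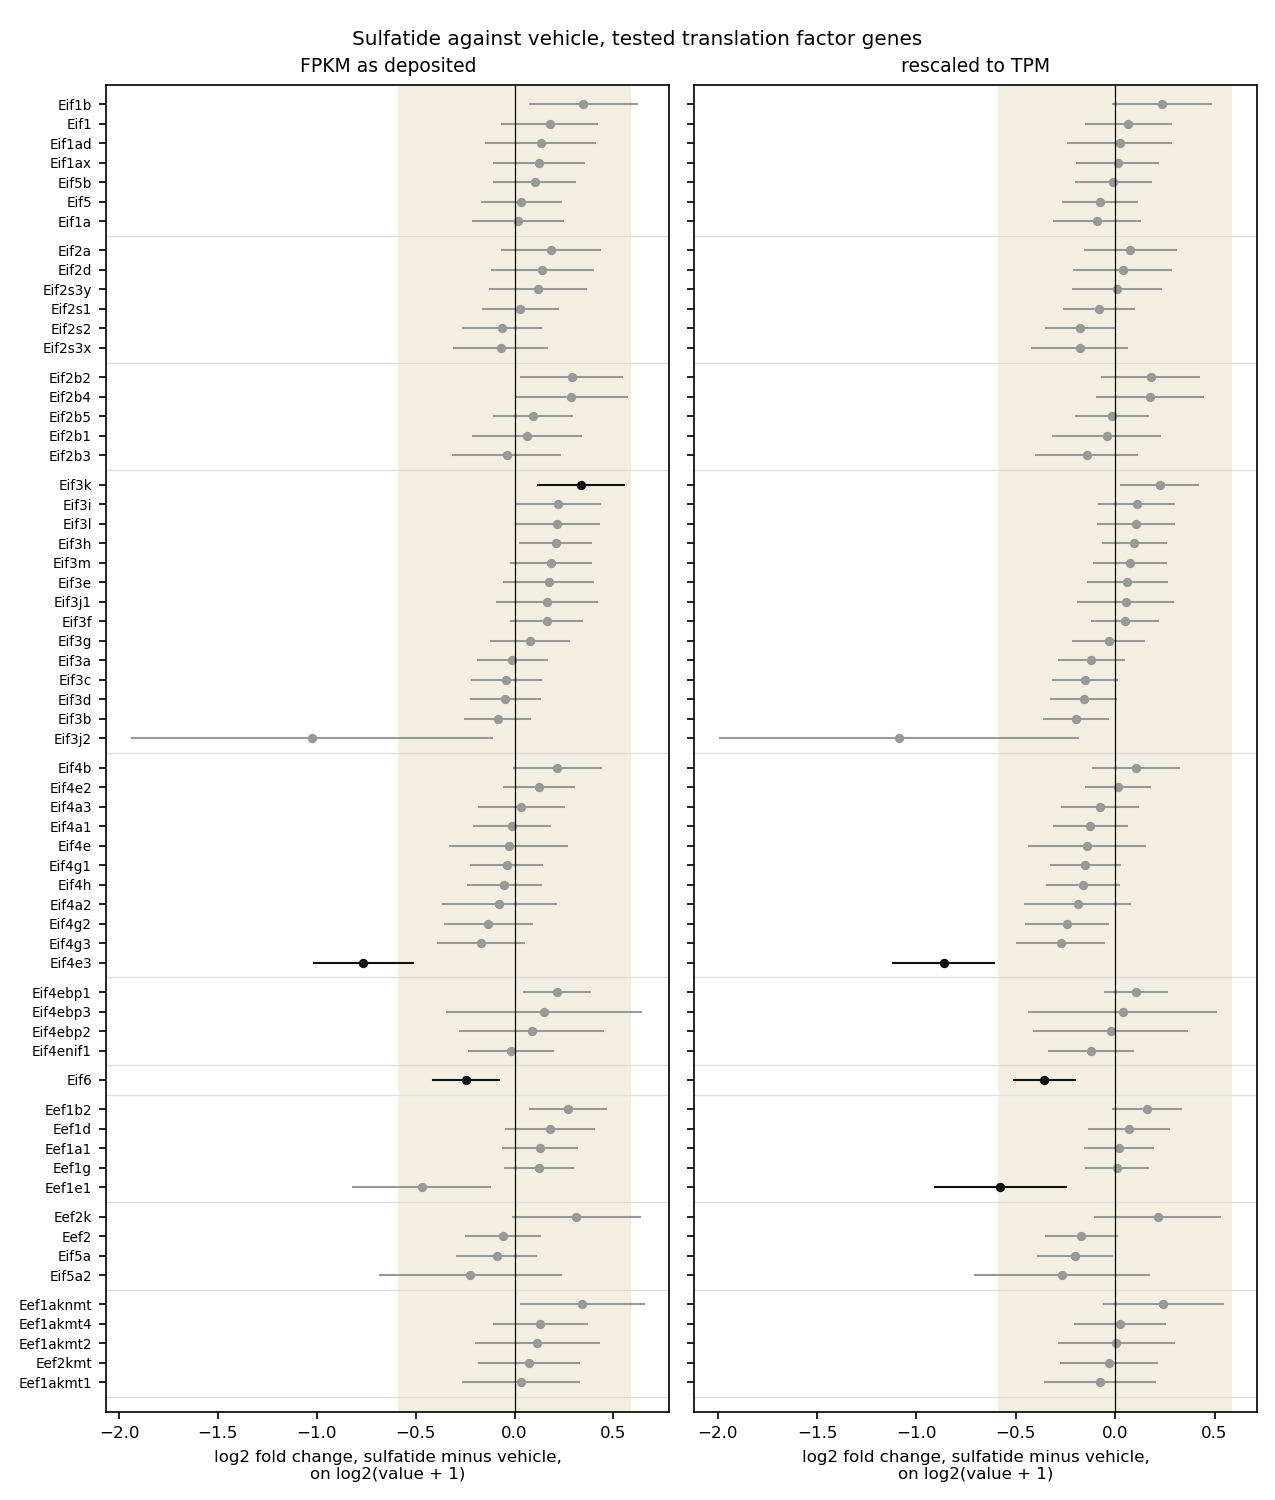
Log2 fold change (x axis, sulfatide minus vehicle on log2(value + 1), with 95% confidence interval) of the 62 tested members, grouped by role, from FPKM as deposited and after rescaling to TPM. Black marks an adjusted p below 0.05 and the shaded band spans 1.5-fold in either direction; the points shift to the left as a group on the TPM scale, where Eif4e3, Eif6 and Eef1e1 are black.

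The 6 members that were not tested were at or near 0. Eif1-ps3, Eif4a3l1, Eif4e1b and Eef1akmt4-ece2 were listed at 0 in all 6 libraries. Eef1a2, the eEF1A form known from neurons and muscle, had 0.410 ± 0.218 FPKM with vehicle and 0.323 ± 0.0503 with sulfatide. Eef1akmt3 had 0.0333 ± 0.0577 FPKM in each group. The highest member was Eef1a1, the general form of eEF1A, at 7749 ± 287 FPKM with vehicle and 8476 ± 106 with sulfatide. Eif1 came next (2862 ± 328 and 3230 ± 255 FPKM), then Eif5a (1191 ± 103 and 1116 ± 41.8).

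**Figure D2:**
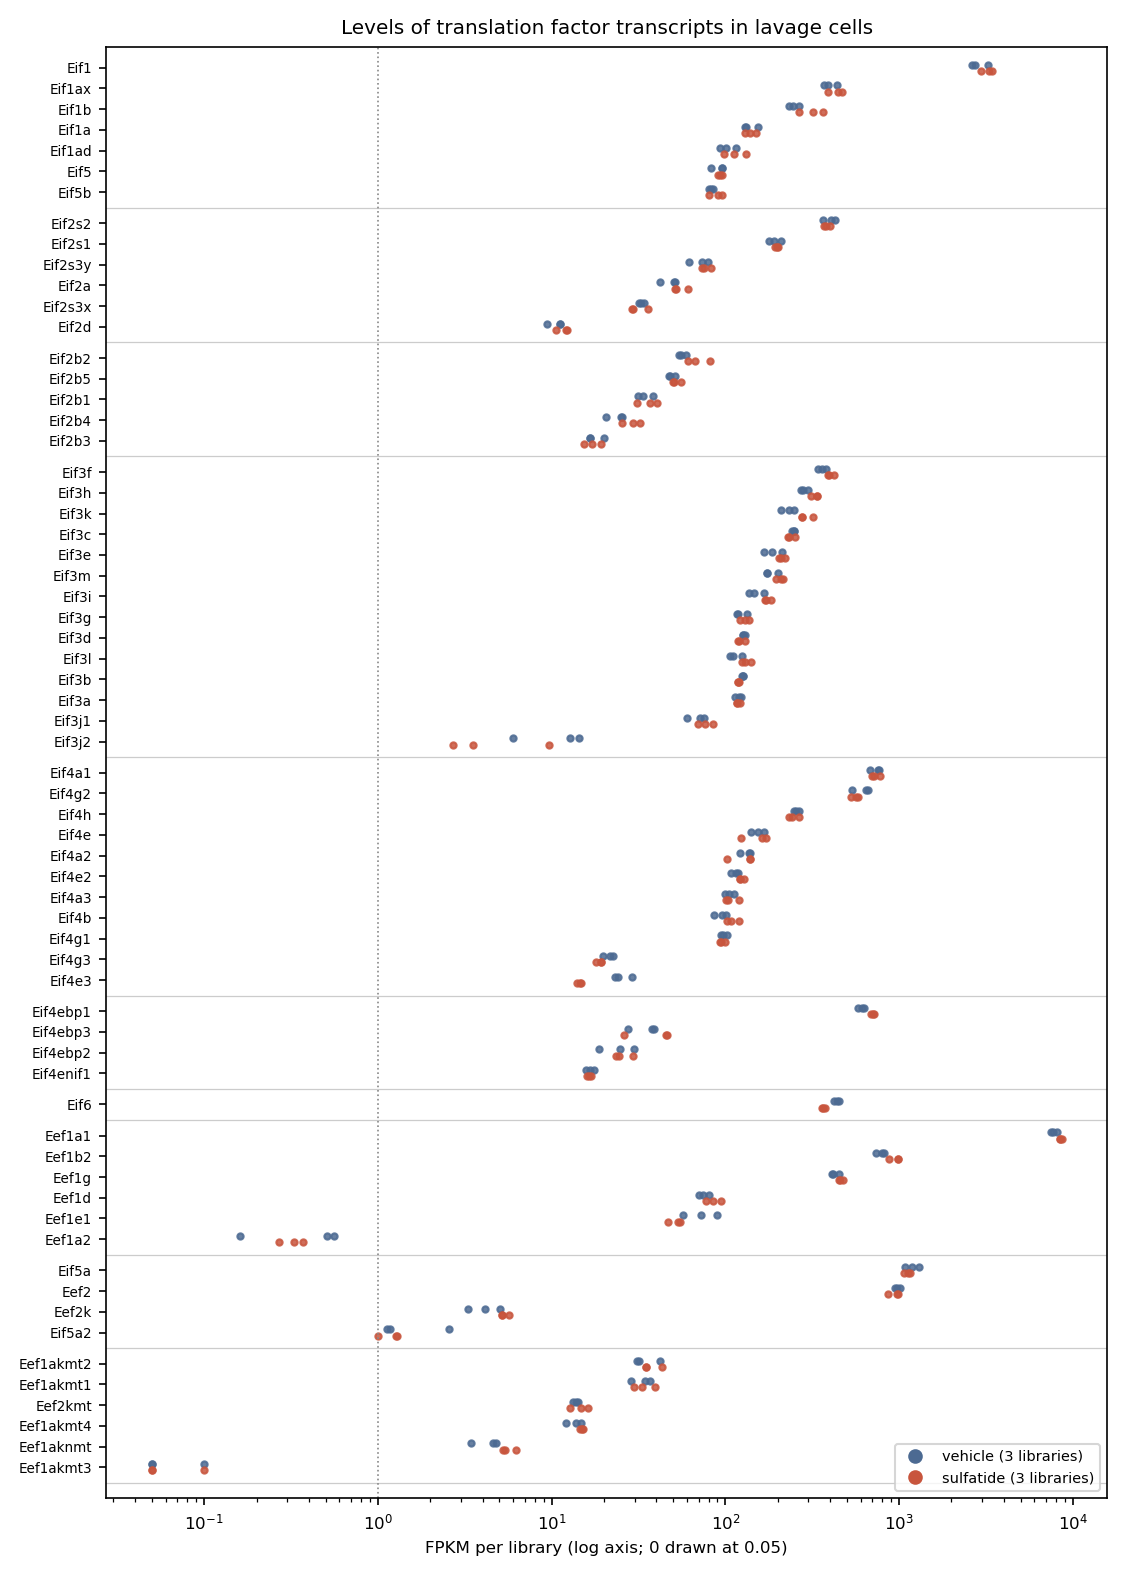
FPKM in each library (x axis, log scale, with 0 drawn at 0.05) of the 64 members detected in any library, grouped by role, with vehicle libraries in blue and sulfatide libraries in red. The dotted line marks 1 FPKM; for most genes the blue and red points lie close together or overlap, and Eif4e3 and Eif6 have all red points to the left of all blue ones.

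Promoter sequence was examined for features that the symbols did not choose. The RefSeq windows (GRCm38.p6, 250 bases before to 50 after the start) held 51 members, 48 of them tested. The core of ETS factor sites, CCGGAAG on either strand, lay in 14 of these 48 windows (29.2%), in 9.12% of all 27025 windows and in 20.6% of the 8460 windows of tested genes. The E-box CACGTG, which reads the same on both strands and is bound by Myc and its relatives, lay in 12 (25%), 7.24% and 10.7%. Eif5a2 and Eif1b held both. The interferon-stimulated element (GAAA, any 2 bases, GAAA) lay in 3 of the 48 (6.25%), 3.49% and 3.38%. TGATGCAA, bound by C/EBP and ATF proteins together, lay in 0, against 0.929% and 0.650%, and TGACGTCA in 1 (2.08%), against 1.88% and 3.39%. A match describes letters in the window and is not a binding site. The eIF3 promoters are shown because eIF3 holds the one member called higher (Eif3k) and members of either direction beside it. Eif3a (log2 fold change −0.01) also held CACGTG, but downstream of its start, and that stretch of transcript is not printed. The capitals mark CACGTG in the first pair and CCGGAAG or its reverse complement in the others, and each window is given 5′ to 3′ on the strand of the gene.
Eif3k (chr7:28981901-28981960, minus strand): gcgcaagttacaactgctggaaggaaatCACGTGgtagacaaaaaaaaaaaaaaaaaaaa
Eif3f (chr7:108934319-108934378, plus strand): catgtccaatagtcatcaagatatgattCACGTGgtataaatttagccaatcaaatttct
Eif3l (chr15:79075161-79075220, plus strand): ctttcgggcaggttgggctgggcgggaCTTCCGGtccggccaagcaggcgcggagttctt
Eif3m (chr2:105017050-105017109, minus strand): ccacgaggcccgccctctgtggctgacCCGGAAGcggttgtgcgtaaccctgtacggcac
Eif3g (chr9:20898602-20898661, minus strand): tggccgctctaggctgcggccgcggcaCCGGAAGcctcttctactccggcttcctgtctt
Eif3c (chr7:126566402-126566461, minus strand): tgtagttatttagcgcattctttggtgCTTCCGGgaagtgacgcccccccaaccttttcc
Eif3d (chr15:77970862-77970921, minus strand): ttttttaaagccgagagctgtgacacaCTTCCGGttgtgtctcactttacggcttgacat
The log2 fold changes of the genes with these windows ran from −0.05 (Eif3d) to 0.34 (Eif3k), so genes with the ETS core lay on either side of 0. Over the 12 members with CACGTG the range was −0.22 (Eif5a2) to 0.35 (Eif1b).

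Among the factors that select the start codon, 0 of 7 members passed the test, and their median log2 fold change was 0.13 (TPM, 0.01). Eif1, which guards the fidelity of start codon choice, had 2721, 3238 and 2628 FPKM with vehicle (replicates 2, 3 and 4, the order used throughout) and 3440, 2946 and 3305 with sulfatide (replicates 1, 2 and 3). The groups overlapped, since vehicle replicate 3 lay above sulfatide replicate 2 (log2 fold change 0.18, 95% interval −0.06 to 0.42, adjusted p = 0.274). Its paralog Eif1b had 231, 264 and 243 FPKM with vehicle and 365, 265 and 318 with sulfatide. Here the lowest sulfatide library, replicate 2, was barely above the highest vehicle library, and the 1.28-fold difference of means did not pass (log2 fold change 0.35 ± 0.12 SE, adjusted p = 0.0716). It passed without vehicle replicate 3 (adjusted p = 0.0491) and without sulfatide replicate 2 (0.0204). Eif5, which stimulates the GTPase of eIF2, had 95.7, 95.5 and 82.3 FPKM with vehicle and 90.5, 93.3 and 95.7 with sulfatide. Eif5b, which joins the ribosomal subunits, had 82.2, 84.6 and 80.6 and 90.2, 79.9 and 96.2. Both overlapped between the groups, with adjusted p of 0.817 for Eif5 and 0.469 for Eif5b. Eif1a, Eif1ad and Eif1ax had log2 fold changes of 0.02 to 0.13.

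For eIF2 itself and the other carriers of initiator tRNA, 0 of 6 members passed (median log2 fold change 0.07, TPM −0.04). Eif2s1, the alpha subunit whose phosphorylation shuts down general translation, had 190.0, 209 and 178 FPKM with vehicle and 197, 199 and 192 with sulfatide. The sulfatide libraries lay inside the vehicle range (log2 fold change 0.03, 95% interval −0.16 to 0.22, adjusted p = 0.835). The gamma subunit is encoded by an X-linked and a Y-linked gene. Eif2s3x had 31.9, 34.1 and 32.5 FPKM with vehicle and 29.2, 35.7 and 29.1 with sulfatide (log2 fold change −0.07, adjusted p = 0.671). Eif2s3y had 73.0, 78.9 and 61.5 with vehicle and 82.7, 73.0 and 75.4 with sulfatide (log2 fold change 0.12, adjusted p = 0.471). Thus the Y-linked copy was the higher in every library, by 1.89 to 2.83 times, and the ranges of that ratio overlapped between groups. The mature transcripts of this pair shared no stretch of 150 identical bases in the reference, the length of 1 read.

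The exchange factor eIF2B, which recharges eIF2 with GTP, had 5 members, of which 0 passed (median log2 fold change 0.09, TPM −0.02). Its catalytic subunit Eif2b5 had 48.1, 51.2 and 47.4 FPKM with vehicle and 55.8, 50.7 and 50.2 with sulfatide (log2 fold change 0.09, 95% interval −0.10 to 0.29, adjusted p = 0.483). The regulatory subunits Eif2b2 and Eif2b4 had larger values of 0.29 each, with adjusted p of 0.106 and 0.141. For Eif2b2 all sulfatide libraries (81.0, 61.0 and 66.9 FPKM) lay above all vehicle libraries (53.9, 55.7 and 59.6).

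In eIF3, the large complex that binds the small ribosomal subunit, 1 of 14 members passed, and the median log2 fold change was 0.16 (TPM, 0.05). Eif3k (ENSMUSG00000053565.10, chr7:28971372-28981864, minus strand) encodes a small subunit of the complex. It had 233, 248 and 210 FPKM with vehicle and 320, 275 and 277 with sulfatide. All sulfatide libraries lay above all vehicle libraries, and sulfatide replicate 1 was the highest. The means, 230 ± 18.8 and 291 ± 25.1 FPKM, differed 1.26-fold (log2 fold change 0.34 ± 0.10 SE, 95% interval 0.12 to 0.55, adjusted p = 0.0416). That call ended on the TPM scale (log2 fold change 0.22, adjusted p = 0.101). It also ended without vehicle replicate 2 or 4 or any single sulfatide replicate, at adjusted p of 0.0504 to 0.149, and among these runs was kept only without vehicle replicate 3. It was lost as well with no filter (adjusted p = 0.0678) and without the variance trend (0.0672).

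The other eIF3 subunits fell into a graded order. Eif3i, Eif3l, Eif3h, Eif3m, Eif3e, Eif3j1 and Eif3f had log2 fold changes of 0.16 to 0.22, and Eif3g 0.08. Eif3i passed without vehicle replicate 3 (adjusted p = 0.0373). Values near 0 were found for Eif3a (−0.01), Eif3c (−0.04), Eif3d (−0.05) and Eif3b (−0.09). Eif3a, the largest subunit, had 113, 123 and 119 FPKM with vehicle and 116, 116 and 121 with sulfatide (adjusted p = 0.938). Eif3b was the tightest within groups, at 127, 124 and 126 FPKM against 119, 119 and 118, and its groups did not overlap although the fold change did not pass (adjusted p = 0.441). Of the exon bases of Eif3d 43.3% overlap Gm17638 on the opposite strand, and reads of these genes can be told apart only if the counting used the strand.

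Transcript length moved with this order. Across the 14 eIF3 genes the Spearman correlation of log2 fold change with transcript length was −0.57, across 61 members with a known length −0.35, and across 10118 tested genes −0.29. These are descriptions over genes measured in the same 6 libraries, and genes are not independent replicates. Eif3k, with a transcript of 909 bases, had a log2 fold change of 0.10 (adjusted p = 0.332) once the trend on length over all tested genes had been removed, an alternative added after the data had been seen. In that run Eif3m, Eif3i, Eif3e and Eif3h had log2 fold changes of 0.02 to 0.05, and Eif3g −0.12. Eif3f had 0.13, Eif3l 0.14 and Eif3j1 0.23. Values for Eif3a, Eif3c, Eif3b and Eif3d were 0.05, −0.03, −0.09 and −0.13, and for Eif3j2 −1.07. The part of transcript length in the eIF3 order was not tested beyond this run.

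Eif3j2, an intronless relative of Eif3j1, had the lowest log2 fold change of all members, −1.02 ± 0.40 SE (adjusted p = 0.108). Its FPKM were 5.98, 14.5 and 12.8 with vehicle and 3.53, 9.59 and 2.69 with sulfatide, so the groups overlapped and the libraries of one group differed by more than 2-fold. Of the 150-base windows of its transcript, 77.1% also occur in Eif3j1, so counts could be split between these genes in a way the sources used here do not describe. Summed, Eif3j1 and Eif3j2 gave 80.9, 85.6 and 72.6 FPKM with vehicle and 79.9, 79.2 and 87.2 with sulfatide, which overlapped. Without sulfatide replicate 2, the highest of its group, Eif3j2 passed (adjusted p = 0.0204).

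Of the cap-binding, scaffold and helicase genes, 11 of 13 were tested, and 1 was lower and 0 higher (median log2 fold change −0.04, TPM −0.15). Eif4e3 (ENSMUSG00000093661.1, chr6:99625135-99666771, minus strand) encodes a member of the eIF4E family that binds the cap in a manner unlike eIF4E. It had 23.0, 23.9 and 29.1 FPKM with vehicle and 14.6, 14.0 and 14.7 with sulfatide. The sulfatide libraries lay within 1 FPKM of each other and well below every vehicle library. The mean fell from 25.4 ± 3.30 to 14.4 ± 0.410 FPKM, 1.76-fold lower (log2 fold change −0.77 ± 0.11 SE, 95% interval −1.02 to −0.52, adjusted p = 0.00166; TPM −0.86, adjusted p = 0.000897). It was the only member called under every alternative run, at adjusted p of 0.000647 to 0.0242. Of its annotated exon bases 14.8% overlap Gm20696, a gene on the same strand.

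Its relatives did not pass the test, and the difference between the family members was not tested. Eif4e, the main cap-binding protein, had 155, 167 and 140 FPKM with vehicle and 162, 171 and 123 with sulfatide, and sulfatide replicate 3 was the lowest of all (log2 fold change −0.03, 95% interval −0.33 to 0.27, adjusted p = 0.894). Eif4e2, a cap-binding protein linked to translational repression, had 114, 118 and 108 with vehicle and 128, 122 and 122 with sulfatide (log2 fold change 0.12, adjusted p = 0.295). The ratio of Eif4e to Eif4e3 FPKM was 4.8 to 7.0 in the vehicle libraries and 8.35 to 12.3 in the sulfatide libraries, without overlap.

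On FPKM most helicase and scaffold genes were close to level. Eif4a1 had 756, 767 and 678 FPKM with vehicle and 712, 772 and 695 with sulfatide (log2 fold change −0.01, 95% interval −0.21 to 0.18, adjusted p = 0.926). Eif4a2, its less abundant paralog, had 137, 139 and 122 with vehicle and 138, 103 and 139 with sulfatide (log2 fold change −0.08, adjusted p = 0.703), and only sulfatide replicate 2 stood low. Eif4g1, the main scaffold, had 97.1, 102 and 94.9 with vehicle and 92.5, 99.9 and 93.7 with sulfatide (log2 fold change −0.04, 95% interval −0.22 to 0.14, adjusted p = 0.755). Its relatives Eif4g2, which lacks the eIF4E-binding part, and Eif4g3 had −0.13 and −0.17. On TPM these were −0.24 (adjusted p = 0.0929) and −0.27 (adjusted p = 0.0790). The FPKM of Eif4g3 did not overlap between the groups and were lower with sulfatide. The helicase cofactors Eif4b and Eif4h had 0.22 (adjusted p = 0.154) and −0.05, and Eif4a3, a core protein of the exon junction complex, 0.03. For Eif4b the groups did not overlap either, with sulfatide higher.

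Of the 4 regulators that bind eIF4E, 0 passed (median log2 fold change 0.12, TPM 0.01). Eif4ebp1, the repressor that mTORC1 releases by phosphorylation, had 582, 629 and 613 FPKM with vehicle and 692, 711 and 715 with sulfatide. All sulfatide libraries were higher, 1.16-fold in the mean, with a log2 fold change of 0.22 ± 0.07 SE that did not pass (adjusted p = 0.0728; TPM 0.10, adjusted p = 0.323). Eif4ebp2 had 24.6, 18.8 and 29.6 with vehicle and 23.3, 29.2 and 24.3 with sulfatide (log2 fold change 0.09, adjusted p = 0.742). Eif4ebp3 had 37.6, 38.6 and 27.6 with vehicle and 46.2, 26.1 and 45.5 with sulfatide (log2 fold change 0.15, 95% interval −0.34 to 0.64, adjusted p = 0.669). Both overlapped between the groups, and 67.3% of the exon bases of Eif4ebp3 overlap another annotated gene on its strand. Eif4ebp1 was thus the main 4E-binding protein transcript in every library, 20.7 to 33.4 times Eif4ebp2. The ratio of Eif4ebp1 to Eif4e FPKM was 3.75 to 4.39 with vehicle and 4.15 to 5.82 with sulfatide, and overlapped.

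Eif6 (chr2:155819832-155826925, minus strand) is a factor that large ribosomal subunits must shed before they can join small ones, and that also acts in making them. It had 419, 450 and 436 FPKM with vehicle and 373, 367 and 361 with sulfatide. No sulfatide library reached the lowest vehicle library. The means were 435 ± 15.4 and 367 ± 6.07 FPKM, 1.19-fold lower (log2 fold change −0.25 ± 0.07 SE, 95% interval −0.41 to −0.08, adjusted p = 0.0477). On the TPM scale the difference was −0.36 (adjusted p = 0.00672). On FPKM the call was lost when any 1 of the 6 libraries was left out, at adjusted p of 0.0723 to 0.160, and also with no filter (0.0516) and without the variance trend (0.0874).

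**Figure D3:**
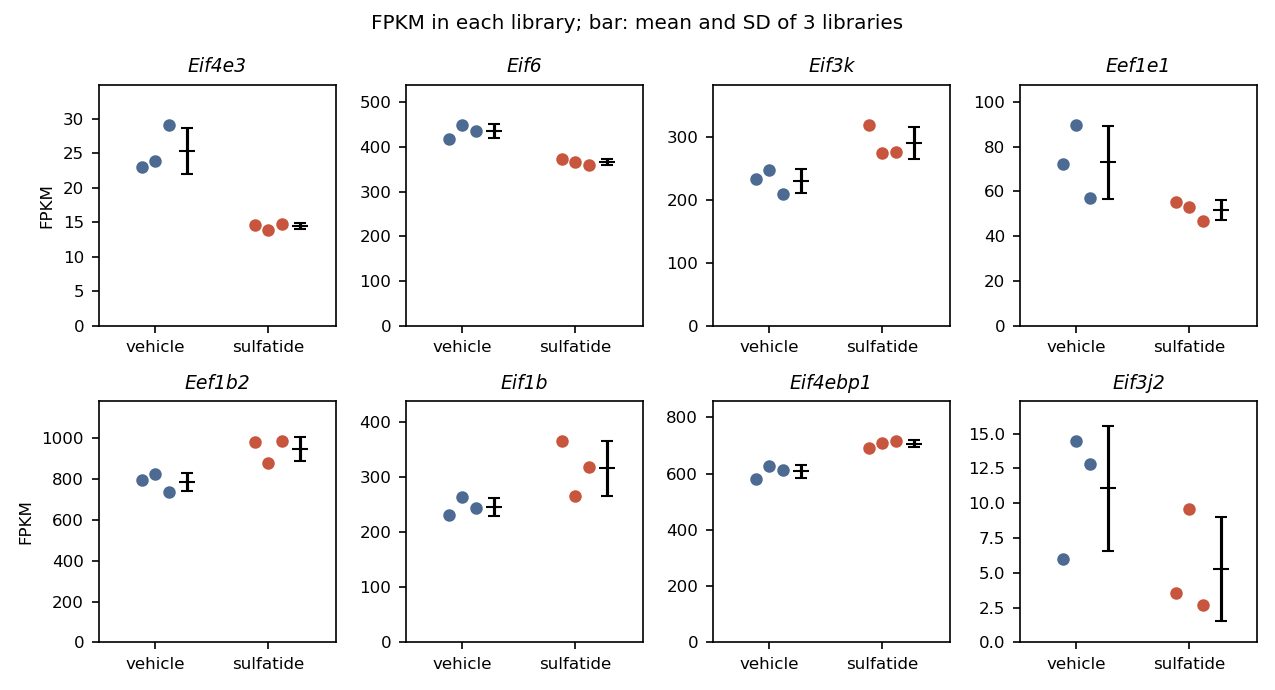
FPKM in each library (y axis, from 0) of 8 members, with vehicle in blue (replicates 2, 3 and 4 from left to right), sulfatide in red (replicates 1, 2 and 3) and black bars for the mean and SD of 3 libraries. Eif4e3, Eif6 and, by a small margin, Eef1e1 show separated groups with lower sulfatide values, Eif3k, Eef1b2, Eif1b and Eif4ebp1 separated groups with higher ones, and Eif3j2 overlapping groups.

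Within eEF1, the complex that loads aminoacyl-tRNA, 0 of 5 tested members passed on FPKM (median log2 fold change 0.13, TPM 0.02). Eef1a1 had 7673, 8066 and 7508 FPKM with vehicle and 8417, 8412 and 8598 with sulfatide. The sulfatide libraries were all higher, with a log2 fold change of 0.13 (95% interval −0.06 to 0.32, adjusted p = 0.298) that was 0.02 on the TPM scale. Eef1b2, which exchanges the nucleotide on eEF1A, had 795, 822 and 736 with vehicle and 979.7, 879 and 984 with sulfatide. Again no sulfatide library overlapped the vehicle range, and the 1.21-fold difference was short of the threshold (log2 fold change 0.27 ± 0.09 SE, adjusted p = 0.0550; TPM 0.16, adjusted p = 0.166). It passed without vehicle replicate 3 (adjusted p = 0.0387) and without sulfatide replicate 2 (0.0410). The other exchange-complex subunits, Eef1d and Eef1g, had 0.18 and 0.12. The fifth gene, Eef1e1, encodes a scaffold of the multi-tRNA synthetase complex.

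Eef1e1 had 72.1, 89.7 and 56.9 FPKM with vehicle and 55.1, 53.1 and 46.6 with sulfatide. The vehicle libraries were widely spread, and vehicle replicate 4 lay close to the sulfatide libraries. The means, 72.9 ± 16.4 and 51.6 ± 4.43 FPKM, differed 1.41-fold (log2 fold change −0.47 ± 0.15 SE, adjusted p = 0.0628). The gene passed on the TPM scale (log2 fold change −0.58, adjusted p = 0.0238) and without vehicle replicate 4 (adjusted p = 0.0161). It also passed with median centring, quantile normalization, array weights, a replicate block and the length trend removed. It did not pass with any other single library left out, with other filters or pseudocounts, or without the variance trend.

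Of eEF2, its kinase and the eIF5A pair, 0 of 4 passed (median log2 fold change −0.08, TPM −0.19). Eef2, the translocase, had 945, 1013 and 976 FPKM with vehicle and 967, 982 and 867 with sulfatide (log2 fold change −0.06, 95% interval −0.25 to 0.13, adjusted p = 0.645). Eef2k, the kinase that inactivates it, had 3.30, 4.13 and 5.05 with vehicle and 5.68, 5.18 and 5.20 with sulfatide. The sulfatide libraries were higher by a small margin, and the log2 fold change of 0.31 did not pass (95% interval −0.01 to 0.63, adjusted p = 0.158). Eif5a, the hypusine-carrying factor that helps ribosomes past difficult peptide bonds, had 1086, 1293 and 1193 with vehicle and 1125, 1152 and 1070 with sulfatide (log2 fold change −0.09, adjusted p = 0.505). Its paralog Eif5a2 was near the detection limit, at 2.56, 1.13 and 1.17 with vehicle and 1.27, 1.28 and 1.00 with sulfatide (adjusted p = 0.473), and only vehicle replicate 2 stood out. The ratio of Eef1a1 to Eef2 FPKM, which library scaling does not touch, was 7.70 to 8.12 with vehicle and 8.56 to 9.91 with sulfatide, without overlap. Neither gene passed on FPKM or TPM, and this ratio was singled out after its values were seen. All other ratios that were formed overlapped between the groups, except that of Eif4e to Eif4e3. The part of transcript length (1794 bases for Eef1a1, 3089 for Eef2) was not tested.

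The methyltransferases of eEF1A and eEF2 were low to moderate in level, and 0 of 5 tested genes passed (median log2 fold change 0.11, TPM 0.01). Eef1aknmt, which modifies the start and a lysine of eEF1A, had 3.42, 4.75 and 4.57 FPKM with vehicle and 5.40, 6.21 and 5.26 with sulfatide. Its sulfatide libraries lay above the vehicle libraries (log2 fold change 0.34, adjusted p = 0.112). The other 4 had log2 fold changes of 0.03 to 0.13.

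Other genes of translation and its control were read from 8 lists of 121 genes, of which 114 were tested. With sulfatide 7 were higher and 14 lower (18.4% called; TPM, 5 and 17), and the median log2 fold change was −0.00. The share called was near that of all tested genes, so the count by itself describes nothing particular to translation. As background for each list below, 8.31% of all tested genes were higher and 10.4% lower on FPKM, and 4.49% and 14.7% on TPM. The distribution of each list is shown beside that of the members.

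**Figure D4:**
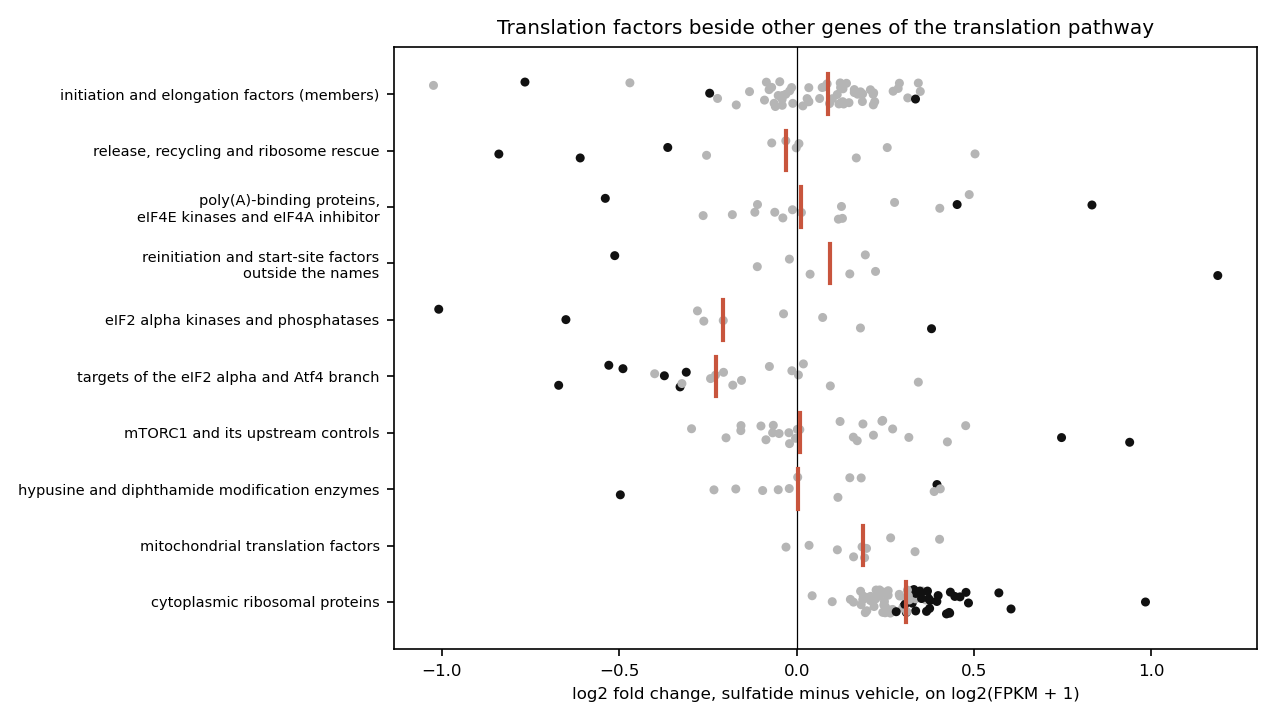
Log2 fold change (x axis, sulfatide minus vehicle on log2(FPKM + 1)) of each tested gene in the members and in 9 other lists (the 8 lists of translation genes and the cytoplasmic ribosomal proteins), with black for an adjusted p below 0.05 and a red bar at the median. The members cluster near 0, with few black points, and the ribosomal proteins lie wholly to the right of 0 on this scale.

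Kinases and phosphatases of eIF2 alpha had 1 gene higher and 2 lower of 9 (median log2 fold change −0.21, TPM −0.30). On the TPM scale 0 were higher and 4 lower, where 14.7% of all tested genes were lower (10.4% on FPKM). Eif2ak2, the kinase PKR that senses double-stranded RNA and is interferon-inducible, had 52.2, 34.7 and 41.5 FPKM with vehicle and 19.7, 19.4 and 22.5 with sulfatide. It was 2.09-fold lower without overlap (log2 fold change −1.01 ± 0.14 SE, adjusted p = 0.00158). Eif2ak3, the kinase PERK of the endoplasmic reticulum, had 4.13, 4.66 and 4.37 with vehicle and 6.10, 6.46 and 5.49 with sulfatide (log2 fold change 0.38, adjusted p = 0.0466). That call was lost on TPM (adjusted p = 0.105), and without vehicle replicate 2 or 4 or any single sulfatide replicate (0.0746 to 0.164). Eif2ak1, the heme-regulated kinase, and Eif2ak4, the sensor of amino acid lack, had 0.07 (adjusted p = 0.567) and 0.18 (adjusted p = 0.335). Ppp1r15a, the stress-induced subunit that directs a phosphatase to eIF2 alpha, fell from 29.9 ± 2.62 to 18.6 ± 0.953 FPKM (log2 fold change −0.65 ± 0.10 SE, adjusted p = 0.00239).

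Among genes downstream of eIF2 alpha phosphorylation and the factor Atf4, 6 of 19 were lower and 0 higher (median log2 fold change −0.23, TPM −0.34). The numbers were the same on TPM. Of all tested genes 10.4% were lower on FPKM and 14.7% on TPM. Atf4 itself had 614, 606 and 576 FPKM with vehicle and 620, 558 and 604 with sulfatide, which overlapped (log2 fold change −0.01, adjusted p = 0.923). Atf3, a stress-induced transcription factor, had 306, 287 and 340 with vehicle and 206, 205 and 175 with sulfatide (log2 fold change −0.67 ± 0.10 SE, adjusted p = 0.00186). Cebpb fell 1.44-fold (log2 fold change −0.53, adjusted p = 0.0146) and Phgdh, the first enzyme of serine synthesis, 1.30-fold (−0.37, adjusted p = 0.0211). The Cebpb call was lost without sulfatide replicate 1 (adjusted p = 0.0502) or 3 (0.0588), and the Phgdh call without vehicle replicate 4 (0.0639) or sulfatide replicate 3 (0.0918). Many of these genes also respond to stimuli other than eIF2 alpha phosphorylation, which was not measured.

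Genes that act on the poly(A) tail, eIF4E or eIF4A had 2 higher and 1 lower of 17. Pdcd4, an inhibitor of the helicase eIF4A, had 2.24, 4.22 and 3.02 FPKM with vehicle and 6.89, 5.71 and 6.25 with sulfatide, without overlap (1.99-fold, log2 fold change 0.83 ± 0.17 SE, adjusted p = 0.0118). Paip2, an inhibitor of the poly(A)-binding protein, was 1.37-fold higher (log2 fold change 0.45, adjusted p = 0.0229). Larp1, which represses transcripts of ribosomal proteins when mTORC1 is off, was 1.47-fold lower (−0.54, adjusted p = 0.0190). The calls of Paip2 and Larp1 were each lost without vehicle replicate 2 or 4, or without sulfatide replicate 1 or 3, at adjusted p of 0.0647 to 0.0968. The eIF4E kinases Mknk1 and Mknk2 had −0.11 (adjusted p = 0.475) and 0.40 (adjusted p = 0.0525; 0.0347 without vehicle replicate 4).

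The mTORC1 list had 2 genes higher and 0 lower of 27 tested. Lamtor4, a part of the lysosomal platform on which mTORC1 is activated, had 163, 183 and 169 FPKM with vehicle and 347, 299.9 and 344 with sulfatide (1.92-fold, log2 fold change 0.94 ± 0.09 SE, adjusted p = 0.000205). Ddit4, an inhibitor of mTORC1, was 1.70-fold higher (log2 fold change 0.75, adjusted p = 0.0125; 0.0639 without vehicle replicate 2). The kinase gene Mtor had a log2 fold change of −0.16 (adjusted p = 0.398). So the pair that passed holds an activator and an inhibitor.

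Reinitiation and start-site factors with other names had 1 gene higher and 1 lower of 8. Bzw2, a protein that competes for partners of eIF5, had 12.4, 13.4 and 13.8 FPKM with vehicle and 31.6, 30.2 and 31.9 with sulfatide. It was 2.37-fold higher with little spread within groups (log2 fold change 1.19 ± 0.09 SE, adjusted p = 8.68e-05). Denr, a reinitiation and recycling factor, was 1.43-fold lower (log2 fold change −0.51, adjusted p = 0.0179), and the call was lost without vehicle replicate 2 (adjusted p = 0.0635), sulfatide replicate 2 (0.0504) or sulfatide replicate 3 (0.0592).

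For release, recycling and ribosome rescue, 3 of 11 tested genes were lower and 0 higher (TPM, 4 and 0). The shares of all tested genes that were lower were 10.4% on FPKM and 14.7% on TPM. Ascc3, the helicase that splits collided ribosomes, had 13.2, 10.4 and 10.9 FPKM with vehicle and 5.80, 6.05 and 6.03 with sulfatide (1.93-fold lower, log2 fold change −0.84 ± 0.12 SE, adjusted p = 0.00142). Gtpbp2, a rescue factor for stalled ribosomes, fell 1.54-fold (−0.61, adjusted p = 0.00235), and its relative Gtpbp1 1.31-fold (−0.36, adjusted p = 0.0468). The Gtpbp1 call was lost when any 1 library was left out (adjusted p 0.0552 to 0.159). The enzymes for hypusine on eIF5A, its polyamine supply and diphthamide on eEF2 had 1 of 13 genes higher and 1 lower (TPM, 0 and 1). These were Amd1 (log2 fold change 0.40, adjusted p = 0.0460; TPM adjusted p = 0.101) and Sms (−0.50, adjusted p = 0.0332), enzymes of polyamine synthesis. The Amd1 call was lost without vehicle replicate 2 or 4 or any single sulfatide replicate (0.0809 to 0.173). The Sms call was lost without vehicle replicate 2 or any single sulfatide replicate (0.0649 to 0.0958). With no filter the calls of Eif2ak3, Gtpbp1, Amd1 and Sms were lost too, at adjusted p of 0.0683 to 0.0892. Of the mitochondrial translation factors 0 of 10 tested passed, with a median log2 fold change of 0.19 (TPM, 0.08).

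The cytoplasmic ribosomal proteins, which the initiation and elongation factors serve, had 33 of 79 genes higher and 0 lower on FPKM, and 7 higher on TPM. Among all tested genes 8.31% were higher on FPKM and 4.49% on TPM. The median log2 fold change of the ribosomal proteins was 0.31 (TPM, 0.20), above the 0.09 of the members. The part of transcript length in that difference was not tested. The ribosomal proteins made up 10.0% to 11.4% of summed FPKM with vehicle and 11.5% to 12.9% with sulfatide. In the same libraries 9 of 24 cell cycle genes were higher and 0 lower on FPKM, and 8 higher on TPM (summed FPKM 825 to 1266 and 1210 to 1895). The part of the cell cycle genes and of S100a8, the gene that rose in the neutrophil list, in the values of the members was not tested.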

How the data were processed

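RNA sequencing of lavage cells gave 6 libraries, grouped by the sample titles. TRIzol extraction, poly(A) selection and paired-end sequencing of strand-specific (dUTP) libraries were used, per the labels' protocols. The submitters' processing notes name the build mm10. Aligner, counting program, strand setting and annotation were not given in the sources used here. The authors deposited FPKM values with 2 decimals for 22800 symbols. A further 3 value columns matched no sample and were not used. Total depth is unknown; between libraries it differed by a factor of 0.849 to 1.20 relative to vehicle replicate 2, as estimated from the steps of low values.

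FPKM were taken as log2(FPKM + 1), genes at 1 FPKM or more in at least 3 libraries were kept, and sulfatide was set against vehicle by limma 3.58.1 under R 4.3.3 (eBayes with trend, 2-sided, Benjamini-Hochberg adjustment over the 10405 genes). The log2(FPKM + 1) scale understates changes of low genes. Folds compare group means of FPKM. With 3 libraries a group, exact permutation p-values (2-sided) start at 0.1 and were not computed. The fit was also run on simulated data with independent normal noise and a small set of genes changed evenly in both directions. Those data held no shift in library sum and no trend on length. They therefore cannot show how calls in the real data depend on scaling.

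The members and lists were chosen with earlier results of these data known. Named were all called members, a fixed set of 23 members, up to 3 called genes of each other list and 9 genes fixed by name. Eif1b, Eef1e1, Eif2b2, Eif3b, Eif3j2, Eif4b, Eif4e2, Eif4g2, Eif4g3 and Eef1aknmt were named after their values were seen. So were the marker genes singled out, members given by fold change alone and the comparison of Eef1a1 with Eef2. Gene positions, lengths and overlaps came from GENCODE M21 and promoters from RefSeq. Alternatives were TPM, a filter at 5 FPKM or none, pseudocounts of 0.1 and 0.5, median centring, quantile normalization, array weights, no trend, a replicate block and leaving out each library. TPM without Saa3 in the sum and removal of the trend on transcript length were added after the data had been seen.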

Additional observations from a re-analysis of the deposited data

How the results depend on the processing

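No call of a member changed sign under any alternative, and Eif4e3 alone was called under all of them. The 1 member called higher became 0 with no filter, on TPM, without the variance trend and with the length trend removed, 2 with median centring, 4 with quantile normalization and 13 with array weights; over leave-one-out runs it was 0 to 4. The 2 called lower became 3, with Eef1e1 added, on TPM with or without Saa3 in the sum and with the length trend removed. They were the same 3 with median centring, quantile normalization and array weights. The number was 1 with no filter and 1 without the trend, and 1 to 2 in leave-one-out runs. The direction of 24 uncalled members changed in at least 1 alternative that did not call them either, and 15 were called in an alternative but not in the reported fit. The median log2 fold change of the members, 0.09, was −0.0191 on TPM and 0.05 to 0.13 in leave-one-out runs. The 1943 calls over all genes became 3777 with array weights and 866 to 2484 in leave-one-out runs (866 to 1143 without vehicle replicate 2 or 4 or sulfatide replicate 1 or 3). Of these calls, 865 (44.5%) were higher with sulfatide. That share was 23.4% on TPM, 35.9% on TPM without Saa3 in the sum, 54.4% with array weights and 30.4% to 57.2% in leave-one-out runs, where all tested genes higher with sulfatide numbered 263 (without vehicle replicate 2) to 1420 (without vehicle replicate 3). For the other translation genes, the 7 called higher became 11 with centring, 12 with quantile normalization, 21 with array weights, 11 with the length trend removed and 3 to 16 in leave-one-out runs. The 14 called lower became 9 with no filter and 5 to 13 in leave-one-out runs. With the replicate block, members called higher numbered 0 and lower 2 (Eif4e3 and Eef1e1), their median was 0.0103, all calls 932, and other translation genes 2 higher and 7 lower. Only replicate numbers 2 and 3 occur in both groups, so the block rests on those 4 libraries. Nothing in the labels pairs them, and deviations from the group means correlated at 0.156 for number 2 and −0.303 for number 3. The unknown depth limits what can be said of genes near 1 FPKM, such as Eif5a2.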
